A study of Homo sapiens with 12 samples.

Results

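LNCaP is a human prostate cancer cell line of luminal epithelial origin that grows in response to androgen. The arrays described here are the 6 of the series on which mTOR was inhibited: 3 from cells given Torin 1 together with R1881 and 3 from cells given Torin 1 alone. They were chosen by their titles from 12 arrays in 4 groups of 3, and every gene whose probe was detected above background (detection p under 0.05) on at least 3 of the 12 arrays is described, which came to 11517 genes. All cells stood for 48 h in phenol red-free medium with charcoal-stripped serum, which removes steroids, and were then treated for 48 h. R1881, a synthetic androgen that resists breakdown, was given at 10 nM, and Torin 1, which blocks the catalytic site of mTOR and so inhibits both complexes of that kinase, was given at 100 nM. The solvents, ethanol and DMSO, served as vehicle. The other 6 arrays, R1881 alone and vehicle alone, served to test where the androgen response under Torin 1 differed from the response without it, and the 2 contrasts share no array. The labels call the samples triplicates and do not say whether these were separate cultures, so p-values measure the spread between these arrays, which may be technical.

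Androgens are steroid hormones that act on transcription through response elements in DNA. They raise the transcripts of some genes, among them the kallikrein proteases of the prostate, and lower those of others, several of them of neural or growth-promoting function. mTOR is a kinase at the core of a nutrient- and growth factor-sensing complex that promotes ribosome production, lipid synthesis and glycolysis, and of another complex that activates AKT. The series concerns the part that mTOR in the nucleus takes in androgen-driven transcription.

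Between 17012 and 18681 of 47323 probes were detected per array with Torin 1 alone, and between 16681 and 17195 with both drugs (group means 18016 ± 885 and 16895 ± 268, SD, n = 3). Arrays of one group correlated with r of at least 0.9936 for Torin 1 and 0.9924 for both drugs, and the within-group SD had a median over genes of 0.105 and 0.11 log2. The 3 arrays of one group lay wholly above or below the 3 of the other for 52.7% of genes (21.9% higher with R1881, 30.9% lower). The first principal component of the 6 arrays held 84.4% of their variance. Of 10 luminal markers 8 were measured, with summed linear levels of 5822 to 6900 under Torin 1 and 6886 to 6999 with R1881 added. Only 1 of 6 basal markers was measured, ITGB4, detected on 0 and 1 of 3 arrays, and 2 of 6 immune markers, with sums of 76.53 to 152.3 and 85.72 to 101.9.

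In Torin 1-treated cells R1881 changed 5191 of 11517 genes (45.1%), at an adjusted p under 0.05 in limma with Benjamini-Hochberg correction over all of them. Of these, 2157 were higher (18.7%) and 3034 lower (26.3%), while 6326 did not pass. Rises reached further than falls: 453 genes rose and 308 fell at least 2-fold, 130 rose and 43 fell at least 4-fold, and 48 rose and 9 fell at least 8-fold. The median change of all genes was -0.05 log2. The split between higher and lower calls depends on how the arrays are scaled to each other: the higher share of the calls was 41.6% with quantile normalization, 51.4% with median scaling over probes detected on all arrays, 46.9% with cyclic loess and 26.9% with median scaling over all probes. Of the 8676 genes detected on all 6 arrays, 4381 were called, or 50.5%. The probe filter admitted 486 genes with detection on exactly 3 arrays, at a median level of 4.62 log2, and left out 670 annotated probes detected on exactly 2, at 4.57.

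Classical androgen targets rose, although the kallikreins were not among the 12 largest rises. KLK3, the gene of prostate-specific antigen, read 4.61, 4.87 and 4.42 log2 on the Torin 1 arrays and 8.21, 8.08 and 7.87 with R1881 added. The groups lay far apart, although the gene was detected on only 1 of 3 Torin 1 arrays, so its change of 3.42 ± 0.14 log2 (SE, adjusted p = 3.07e-10) starts near the background. KLK2, a neighbouring kallikrein with a closely similar sequence, went from 4.55, 4.50 and 4.71 to 8.45, 8.48 and 8.53. Its change was 3.90 ± 0.09 log2 (adjusted p = 3.72e-13), again from a level detected on 1 of 3 arrays. Because the 2 transcripts are similar, each probe may also read the other, and how far was not tested. KLK4, another kallikrein, was detected on all arrays and rose from 10.04, 10.12 and 10.16 to 12.28, 12.36 and 12.37 log2, 4.7-fold (adjusted p = 2.85e-11). Of 11 measured kallikreins and secreted proteins, 9 rose and 1 fell, 90.9% called against 45.1% of all genes, with a median of 2.23 log2. The one that fell was ACP3, prostatic acid phosphatase, named here after its value was seen, with -1.61 log2 under Torin 1 and -0.23 without it.

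The promoters of KLK3 and KLK2 are shown because both carry the same letters of a known kallikrein androgen response element and both genes rose more than 8-fold, and that of HADH because it holds the same pattern in a gene that fell. Sequences are from RefSeq on GRCh38.p14 and run from 250 bases before to 50 bases after a transcript start, 5′ to 3′ on the gene's strand. For KLK3 and KLK2 this is the annotated start of the gene. The promoter table holds 2 starts for HADH, and the one shown is internal, 14722 bases downstream of the first. Capitals mark the match, on either strand, to GAACA and AGTGCT with any 3 bases between them, which begins 169 bases before the start of KLK3 (chr19:50854665-50854964, plus strand), 175 before that of KLK2 (chr19:50873189-50873488, plus strand) and 88 before the internal start of HADH (chr4:108004361-108004660, plus strand).
KLK3: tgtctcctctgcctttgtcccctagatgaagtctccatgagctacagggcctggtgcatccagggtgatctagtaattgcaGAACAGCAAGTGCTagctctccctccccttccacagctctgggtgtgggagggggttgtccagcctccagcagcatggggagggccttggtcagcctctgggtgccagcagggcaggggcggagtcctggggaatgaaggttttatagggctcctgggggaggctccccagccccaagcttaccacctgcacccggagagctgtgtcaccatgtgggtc
KLK2: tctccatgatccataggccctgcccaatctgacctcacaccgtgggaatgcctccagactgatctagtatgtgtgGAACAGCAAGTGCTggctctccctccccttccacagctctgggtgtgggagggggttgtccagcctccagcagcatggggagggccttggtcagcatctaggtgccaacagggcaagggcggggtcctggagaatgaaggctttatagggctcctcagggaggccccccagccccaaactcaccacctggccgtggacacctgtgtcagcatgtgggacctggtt
HADH: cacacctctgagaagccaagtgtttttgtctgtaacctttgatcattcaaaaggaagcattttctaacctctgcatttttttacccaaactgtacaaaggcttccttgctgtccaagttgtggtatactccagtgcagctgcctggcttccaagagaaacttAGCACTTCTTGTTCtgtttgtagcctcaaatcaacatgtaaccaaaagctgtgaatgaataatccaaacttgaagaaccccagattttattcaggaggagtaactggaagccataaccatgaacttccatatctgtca
The matched letters are GAACAGCAAGTGCT in both kallikreins. The base just before the match is A in KLK3 and G in KLK2, and the pattern, which leaves that base out, fits both. In HADH, a mitochondrial enzyme of fatty acid oxidation, the match lies on the other strand, and the gene went from 10.47, 10.49 and 10.36 to 9.64, 9.70 and 9.68 log2 (-0.76 ± 0.07, adjusted p = 1.5e-06).

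A promoter was found for 9279 of the 11517 genes, 2645 of them with more than 1 start, and a gene was counted where the window of any start matched. Of the 9279, 6 (0.0647%) held this pattern, as did 15 of all 27305 genes in the promoter table (0.0549%). The other 3 were BLOC1S6, HNRNPD and SEM1, named for holding it, with changes of -0.96, -0.45 and 0.52 log2. The pattern thus stood in genes that rose and in genes that fell. Further patterns were searched on both strands, and the ones described were picked after the matches had been seen. Elements outside these promoter windows were not searched, so the shares do not cover them. The half-site AGAACA stood in 48 of 375 promoters of genes at least 2-fold higher (12.8%) and in 13% of those of all tested genes, and the palindrome of AGAACA and TGTTCT with any 3 bases between them in 0 of 9279. The ER stress element, CCAAT and CCACG with any 9 bases between them, stood in 7 of 34 promoters of the protein folding genes described further on (20.6%) and in 15 of 9279 tested (0.162%). The amino acid response pattern TGATGCAA stood in 5 of 21 amino acid supply genes (23.8%) against 66 of 9279 (0.711%), and the overlapping TGATGNAAT in 2 of 21 against 68. The folding and amino acid lists were drawn up from genes known for these stress responses. Their higher shares can therefore come from the choice of genes and say nothing about R1881. The sterol element TCACCCCAC stood in 1 of 19 cholesterol synthesis genes and in 49 of 9279, and the same letters after an A in 1 of 19 and in 4.

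Outside the kallikreins, 35 of 42 measured androgen-induced membrane and enzyme genes rose and 3 fell, with a median of 2.42 log2. Called members made up 90.5%, against 45.1% of all genes. NCAPD3, a subunit of the condensin II complex that compacts chromosomes, read 5.30, 5.12 and 5.22 log2 with Torin 1 and 11.12, 11.02 and 11.11 with R1881 added, a 58.4-fold rise (adjusted p = 1.74e-14). CENPN, which binds the centromeric histone, rose from 8.31, 8.25 and 8.31 to 12.35, 12.32 and 12.37 log2 (4.05 ± 0.08, SE). For both genes the 3 arrays of each group stood close together and far from the other group. TMPRSS2, the membrane serine protease whose promoter drives ERG fusions in many prostate cancers, read 7.32, 7.15 and 7.37 and then 11.31, 11.45 and 11.48 log2, 17.5-fold up. HPGD, which degrades prostaglandins, was detected on 0 of 3 arrays with Torin 1 and on all 3 with R1881, and was at least 22.1-fold higher. PTGER4, a prostaglandin E2 receptor, read 4.92, 5.09 and 5.02 against 9.65, 9.58 and 9.84 log2 and rose 25.6-fold. Genes of prostaglandin breakdown and of prostaglandin reception thus both stood among the 12 largest rises.

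**Figure D1:**
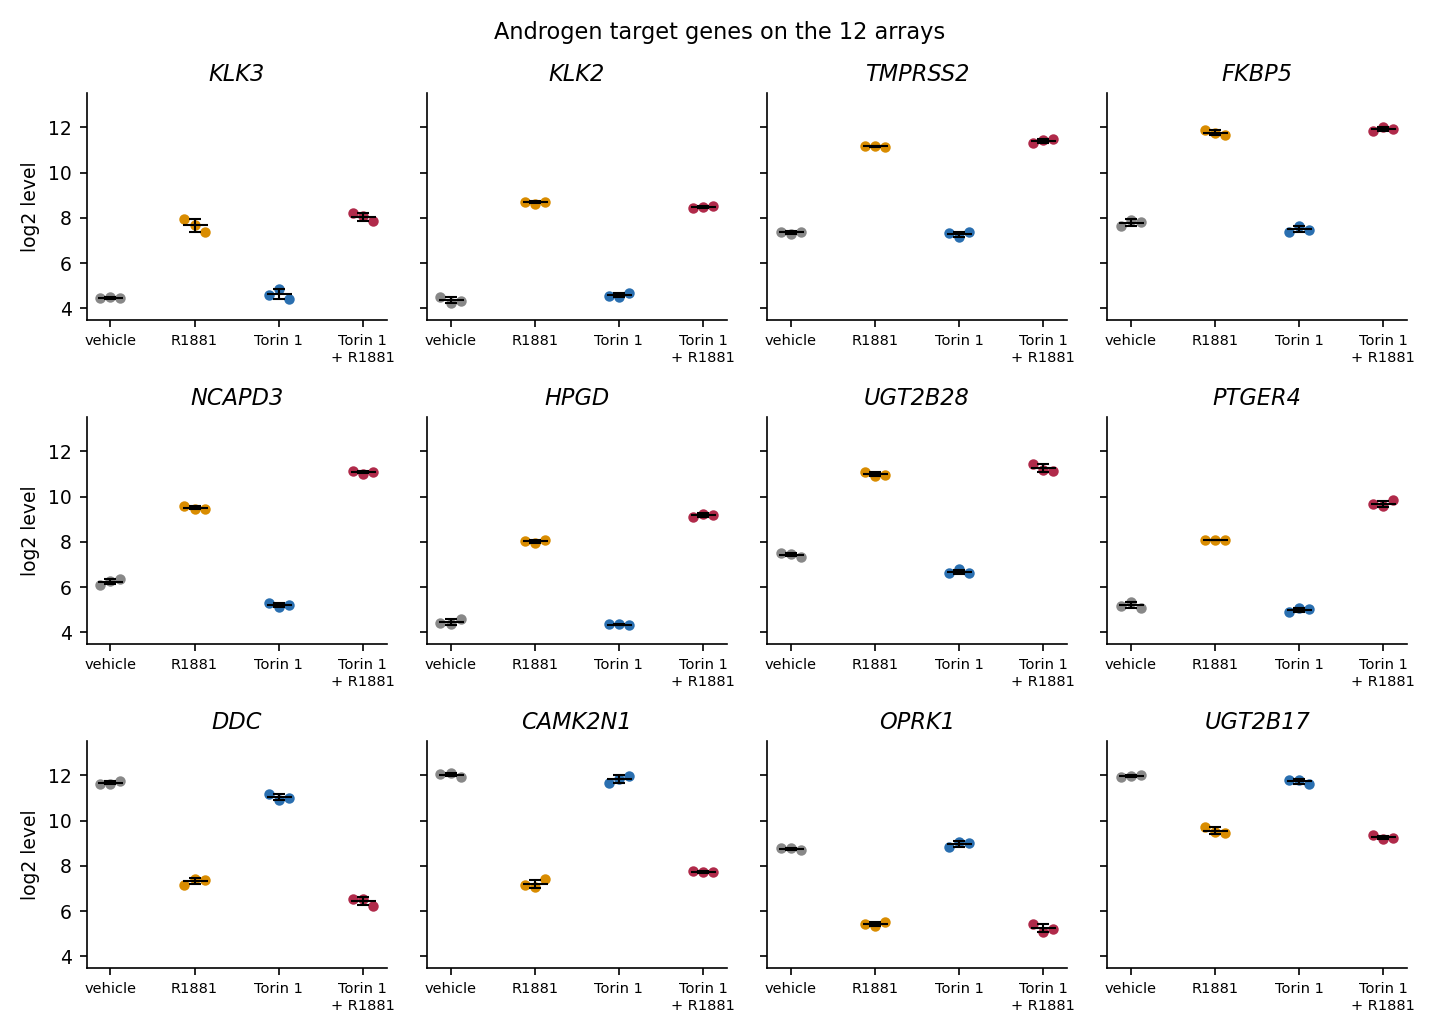
Log2 level (y axis) of 12 androgen target genes on the 12 arrays in the 4 groups (x axis); points are arrays, the dash is the group mean and the bar the SD (n = 3). With R1881 the first 8 genes, KLK3 to PTGER4, lie higher and DDC, CAMK2N1, OPRK1 and UGT2B17 lower, both with and without Torin 1.

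The other leading rises included NBL1, a secreted antagonist of bone morphogenetic proteins, and ANGPT2, a ligand of the endothelial TIE2 receptor. Neither was detected on a Torin 1 array and both were detected on all 3 with R1881, so that NBL1 was at least 29.8-fold and ANGPT2 at least 23.1-fold higher. AGR2, a protein disulfide isomerase of secretory epithelia, was at least 23.4-fold higher by its brighter probe, while its second, dim probe gave 0.54 log2 and was not called. TRIM48, TRIM49D1 and TRIM49D2, relatives of TRIM51 in the tripartite motif family, were undetected on the Torin 1 arrays. They were at least 24.4-fold, 23.9-fold and 16.5-fold higher with R1881. Related genes may share probe signal, and whether the probes read more than 1 of them was not tested. The pseudogene GRM5P1 was at least 20.6-fold higher. At the top of these, TRIM51 read 5.05, 5.25 and 5.37 log2 without and 11.12, 11.14 and 11.13 with R1881, the largest change of any gene under the rule used for naming, 60-fold.

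Of 16 androgen-induced transcription and receptor-linked factors, 12 rose and 3 fell, 93.8% called against 45.1% of all genes, with a median of 1.32 log2. FKBP5, a co-chaperone of steroid receptors, read 7.37, 7.63 and 7.47 and then 11.85, 12.01 and 11.91 log2 (21.6-fold, adjusted p = 3.75e-13). SGK1, a kinase related to AKT, went from 4.54, 4.50 and 4.92 to 8.82, 8.88 and 8.96 log2, and its 3 probes gave between 3.65 and 4.23. SGK1 was detected on 1 of 3 Torin 1 arrays, so its rise starts near the background. ERRFI1, an inhibitor of EGF receptor signalling, rose by 4.20 ± 0.08 log2. ZBTB16, a zinc finger repressor, rose by 2.57 log2 by its brightest probe, by 2.94 by another and by 0.67 by the dimmest. Among coregulators and pioneer factors, 2 of 15 rose and 6 fell (3 to 7 fell over the scalings), 53.3% called against 45.1% of all genes. GRHL2, an epithelial transcription factor, rose by 1.34 log2 and PIAS1, a SUMO ligase, by 0.88. GATA2, a pioneer factor, fell by 1.02 and HOXB13, a prostate lineage factor, by 0.86. FOLH1, which encodes prostate-specific membrane antigen, was placed in the induced list, a placing that its values go against. It fell from 9.78, 10.40 and 10.55 to 8.91, 8.75 and 8.81 log2 (-1.42 ± 0.18, adjusted p = 2.75e-05). With 1 array left out this change lay between -1.65 and -1.27 log2. Its difference from the change without Torin 1 then lay between -0.82 and -0.44, and in the fit of all arrays that difference did not pass the threshold.

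The androgen-inactivating glucuronosyltransferases split. UGT2B28 rose from 6.62, 6.78 and 6.65 to 11.47, 11.17 and 11.15 log2, and UGT2B11 from 8.07, 8.19 and 8.07 to 12.19, 12.14 and 12.06. Their changes were 4.58 and 4.02 log2, with 2.07 from a second UGT2B11 probe. UGT2B17 and UGT2B15, which conjugate testosterone metabolites, moved the other way: UGT2B17 read 11.80, 11.79 and 11.61 and then 9.35, 9.19 and 9.23 log2, 5.57-fold lower, and UGT2B15 10.63, 10.84 and 10.59 and then 8.31, 8.55 and 8.76, 4.43-fold lower. All kept probes of UGT2B17 gave changes between -2.86 and -2.48 log2. These genes are close copies, and probes may share signal. In the whole list of 11 genes of androgen inactivation 6 rose and 3 fell, 81.8% called against 45.1% of all genes.

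The androgen-repressed list held 18 measured genes, of which 14 fell and 3 rose, 94.4% called against 45.1% of all genes. Their median was -1.45 log2. DDC, which decarboxylates precursors to dopamine and serotonin, read 11.19, 10.93 and 10.99 log2 with Torin 1 and 6.52, 6.55 and 6.24 with R1881 added. That is a 24.2-fold fall (adjusted p = 7.14e-13), the largest among the genes named by rule. CAMK2N1, an inhibitor of CaM kinase II, went from 11.65, 11.84 and 11.99 to 7.79, 7.72 and 7.71 log2 and was 17-fold lower. OPRK1, the kappa opioid receptor, read 8.82, 9.07 and 9.03 against 5.43, 5.08 and 5.23 log2, 13.2-fold lower. BCHE, which hydrolyses choline esters, fell by 3.46 log2. Further large falls were those of CBLN2, a synapse-organizing secreted protein (-3.59), GASK1B, a Golgi-associated protein (-3.51), LRRN1 (-3.27), SLITRK3 (-2.86) and COLEC12, a scavenger receptor (-2.92 log2). CBLN2 was detected on 1 of 3 arrays with both drugs, so its fall ends near the background. COLCA1 was detected on all 3 Torin 1 arrays and on none with R1881, at least 7.69-fold lower. GRB10, an adaptor that dampens insulin and IGF signalling, fell by 3.17 log2, with -3.46 and -0.91 from its other probes, and NIPSNAP3A by 2.77 with -0.49 from a dim second probe. The repressed-list members that rose were UGT2B11, and, named after their values were seen, CXCR4, a chemokine receptor (undetected with Torin 1, at least 3.19-fold higher), and SLC7A11, the cystine transporter (0.41 log2).

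The same androgen dose was then compared with its solvent in cells without Torin 1. R1881 alone changed 4289 genes (37.2%), 1818 upward (15.8%) and 2471 downward (21.5%). Of these, 284 rose and 238 fell at least 2-fold, and 27 rose and 6 fell at least 8-fold. Across genes the log2 changes with and without Torin 1 correlated with Pearson's r of 0.80 and Spearman's rho of 0.65, a description over genes, which are not independent, from contrasts that share no array. Both contrasts called 3007 genes, 2892 in the same direction (1213 higher, 1679 lower), which is 55.7% of the calls under Torin 1 and 67.4% of those without. All 48 genes that rose at least 8-fold under Torin 1 also rose without it, and all 43 that fell at least 4-fold also fell without it.

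The difference between the 2 responses was tested directly as an interaction, that is the log2 response in the presence of Torin 1 minus the response in its absence. It passed the threshold for 1721 genes (14.9%), 906 with a more positive response under Torin 1 (7.87%) and 815 with a more negative one (7.08%), and for 817 genes when the arrays were scaled on the median of all probes. Among genes that rose in both settings, 294 rose more under Torin 1 and 50 rose less. Among those that fell in both, 171 fell more and 79 fell less, and for 2298 genes that moved together the interaction did not pass. The androgen-induced membrane and enzyme list had 20 members of 42 with a more positive and 4 with a more negative response (15 and 3 with median scaling over all probes). Its median was 2.42 log2 under Torin 1 and 1.73 without it. For the kallikreins and secreted proteins the counts were 1 and 3 of 11 (1 and 5 with median scaling over probes detected on all arrays, 1 and 1 over all probes), with medians of 2.23 and 2.46.

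**Figure D2:**
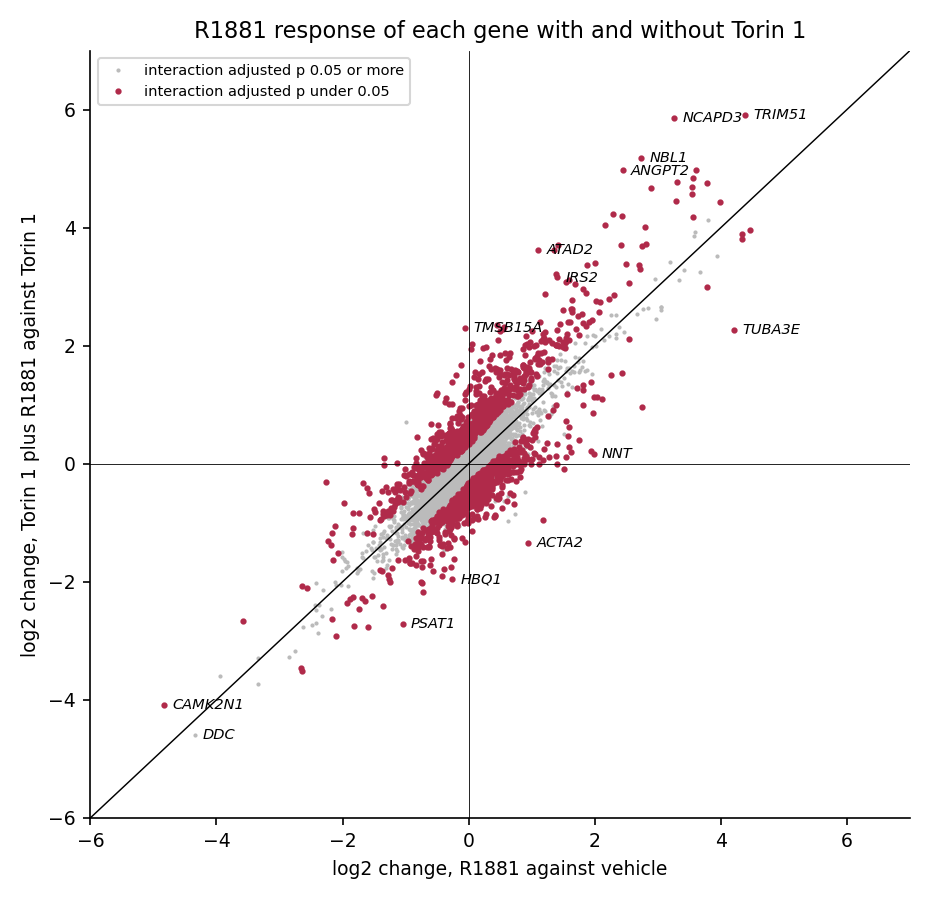
Log2 change with R1881 for each of the 11517 genes without Torin 1 (x axis) and under Torin 1 (y axis), with the line of equal change; red marks the 1721 genes whose interaction has an adjusted p under 0.05. NCAPD3, NBL1 and ANGPT2 lie well above the line, and TUBA3E, NNT, ACTA2 and PSAT1 lie well below it.

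NCAPD3 had the largest positive difference. Its mean levels were 6.25 log2 with vehicle, 9.51 with R1881, 5.22 with Torin 1 and 11.08 with both, so that the R1881 change was 3.27 without and 5.87 with Torin 1 (difference 2.60, adjusted p = 6.13e-08). The level with both drugs was above that with R1881 alone, and the level with Torin 1 alone was below vehicle. ATAD2, a bromodomain ATPase and transcriptional coactivator, read 5.61, 5.93 and 5.67 under Torin 1 and 9.37, 9.35 and 9.36 with R1881 added, a change of 3.63 log2 against 1.10 without Torin 1. CLDN8, a tight junction protein, changed by 3.71 against 1.42 log2 and GADD45G, a growth arrest gene, by 3.62 against 1.36. For ANGPT2 and NBL1 the vehicle and Torin 1 arrays were all undetected, so that difference lies in the levels with R1881: 6.79 and 9.26 log2 for ANGPT2, 7.12 and 9.62 for NBL1. The interaction of targets named by the rule did not pass for KLK3 (0.22 log2, adjusted p = 0.535) or TMPRSS2 (0.33, adjusted p = 0.0709). It passed narrowly for FKBP5 (0.44, adjusted p = 0.0457) and KLK2 (-0.44, adjusted p = 0.0265), and leaving out 1 array raised those adjusted p-values to as much as 0.108 and 0.0653.

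Several genes responded to R1881 under Torin 1 with no call in its absence, and for 639 of 2184 such genes the interaction passed. TMSB15A, an actin-sequestering thymosin, read 4.93, 5.18 and 4.98 log2 with Torin 1 and 7.24, 7.35 and 7.42 with R1881 added. Without Torin 1 its means were 8.17 with vehicle and 8.12 with R1881, so the level with both drugs lay between that with Torin 1 alone and those without it. CCN1, a matricellular growth factor-inducible protein, went from 5.18, 5.25 and 5.08 to 7.37, 7.01 and 7.25 log2, with 5.82 and 5.87 in the arrays without Torin 1. Here the level with both drugs exceeded all other groups. APP, the amyloid precursor protein, rose by 1.98 log2 against 0.28, and all 3 of its probes rose by between 1.98 and 2.56. TLCD4 rose by 1.97 against 0.24. SLC9B2 was at least 3.2-fold higher by 1 probe and gave -0.05 log2 by a second, dim one. HBQ1, a globin, fell from 6.87, 6.69 and 6.77 to 4.80, 4.86 and 4.82 log2 against a change of -0.26 without Torin 1.

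Opposite directions with and without Torin 1 were called for 115 genes, a choice that all but fixes a called difference between the responses. ACTA2, smooth muscle actin, had the largest difference: it read 8.77, 8.79 and 8.54 log2 with Torin 1 and 7.32, 7.23 and 7.52 with R1881 added, a fall of 2.54-fold, while without Torin 1 its mean rose from 7.54 to 8.49. R1881 alone and Torin 1 alone thus each gave a higher level than vehicle or both drugs. PLA2G4F, a cytosolic phospholipase, changed by -0.69 against 0.72 log2, ITPRIP, an inositol trisphosphate receptor-interacting protein, by -0.63 against 0.61, and SMCO4 by -0.54 against 0.70. PTPN13, a tyrosine phosphatase, went up by 0.67 under Torin 1 and changed by -0.60 without it. CRCP read 7.11, 6.60 and 6.1 and then 6.08, 5.79 and 5.11 log2, and its groups were parted by only a few hundredths. Its call was lost without the first Torin 1 array (-0.69 log2, adjusted p = 0.0705) or the third array with both drugs (-0.67, adjusted p = 0.0689), and its 2 dimmer probes were not called.

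Other responses were smaller under Torin 1. NNT, the mitochondrial transhydrogenase, and PNLIP, pancreatic lipase, were detected only with R1881 alone, at 6.25 and 6.18 log2. With both drugs they were detected on no array, with changes of 0.17 (adjusted p = 0.14) and 0.22 log2 (adjusted p = 0.0658). The testis-type alpha tubulins TUBA3E and TUBA3C were undetected without R1881. They were at least 3.89-fold and 1.42-fold higher with it under Torin 1, where the mean levels were 6.68 and 5.23 log2 against 8.53 and 7.05 with R1881 alone. The copies TUBA3C, TUBA3D and TUBA3E are nearly identical, and probes may share signal.

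Within the mTOR pathway itself the transcript that rose most was MTOR, which read 7.47, 7.13 and 7.28 log2 on the Torin 1 arrays and 9.34, 9.36 and 9.21 with R1881 added (4.03-fold, adjusted p = 7.26e-09). Without Torin 1 the mean went from 7.29 to 8.18, and the difference of the responses was 1.12 log2 (adjusted p = 0.000532). Of 34 measured mTOR complex members and regulators 8 rose and 11 fell, 55.9% called against 45.1% of all genes. Their median of -0.02 log2 changed sign with the scaling. RPTOR and RICTOR, which define the respective mTOR complexes, lay near the background, at -0.02 and 0.14 log2, neither called. DDIT4, an inhibitor of mTOR complex 1 induced by stress, fell from 8.64, 8.56 and 8.41 to 6.59, 6.59 and 6.72 log2, a change of -1.91 against -0.41 without Torin 1 (adjusted p of the difference = 4.35e-06). SESN1, a p53-induced inhibitor of the same complex, changed by -1.52 under Torin 1 and -1.68 without it, and RRAGD, a lysosomal GTPase that recruits the complex, rose by 0.63 log2.

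Of 26 FOXO target and receptor feedback genes, a group tied to low AKT activity, 10 rose and 13 fell. The share called was 88.5%, against 45.1% of all genes. IRS2, the insulin receptor substrate, read 5.78, 5.94 and 5.69 log2 with Torin 1 and 9.05, 8.87 and 8.96 with R1881 added. The rise was 8.93-fold, against 1.41 log2 without Torin 1 (difference 1.75, adjusted p = 2.72e-06). Mean levels were 4.95 with vehicle, 6.36 with R1881 alone and 8.96 with both drugs, the last being the highest of the 4 groups. IGF1R was detected only on the 3 arrays with both drugs, where it was at least 1.14-fold above the bound for Torin 1. TXNIP, an inhibitor of glucose uptake, fell from 11.84, 11.70 and 11.94 to 10.59, 10.71 and 10.66 log2, and CCNG2, a cyclin linked to quiescence, by 1.33 log2.

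MYC, the growth-promoting transcription factor, read 10.94, 11.03 and 11.08 log2 with Torin 1 and 9.75, 9.74 and 9.87 with R1881 added. It fell by 1.23 log2 against -0.62 without Torin 1 (adjusted p of the difference = 0.00234), from a Torin 1 level above vehicle (11.02 against 10.36) to one near that of R1881 alone (9.79 against 9.74). Among G1 regulators 3 of 13 rose (1 without the first Torin 1 array or the second array with both drugs) and 4 fell. That is 53.8% called against 45.1% of all genes, and the sign of the list's median changed with the scaling. CDKN2B, the CDK inhibitor p15, rose by 1.56 log2, while CCND1, cyclin D1, changed by -0.62, CDK4 by -0.67 and SKP2, which marks p27 for degradation, by -0.65. Of 39 DNA replication genes 5 rose and 12 fell, 43.6% called against 45.1% of all genes, and of 44 mitosis genes 2 rose and 4 fell, 13.6% called. Replication genes that fell numbered 7 without the third Torin 1 array or the first array with both drugs. Mitosis genes that rose numbered 1 without any single array other than the first with both drugs. Over the scalings tried, 1 to 7 and 8 to 13 replication genes and 0 to 4 and 3 to 6 mitosis genes were higher and lower, and the sign of the mitosis median changed. FEN1, a flap endonuclease, rose from 6.99, 6.92 and 6.82 to 8.08, 8.16 and 8.13 log2, whereas without Torin 1 it read 9.26 and 9.22. CDT1, an origin licensing factor, changed by -0.97, to a level detected on 1 of 3 arrays, and CCNE1, cyclin E1, by -0.89 log2. Mitotic genes were near the background under Torin 1: 17 of the 44 were undetected on all 6 arrays, and MELK, a mitotic kinase, read a mean of 5.44 log2 against 8.65 with vehicle. TOP2A, the mitotic topoisomerase, was detected on 1 of the 6 arrays with Torin 1 and on all 6 without it, where R1881 changed it by -0.75 log2. With R1881 alone 18 of the 44 mitosis genes had fallen, while 21.5% of all genes fell in that contrast.

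**Figure D3:**
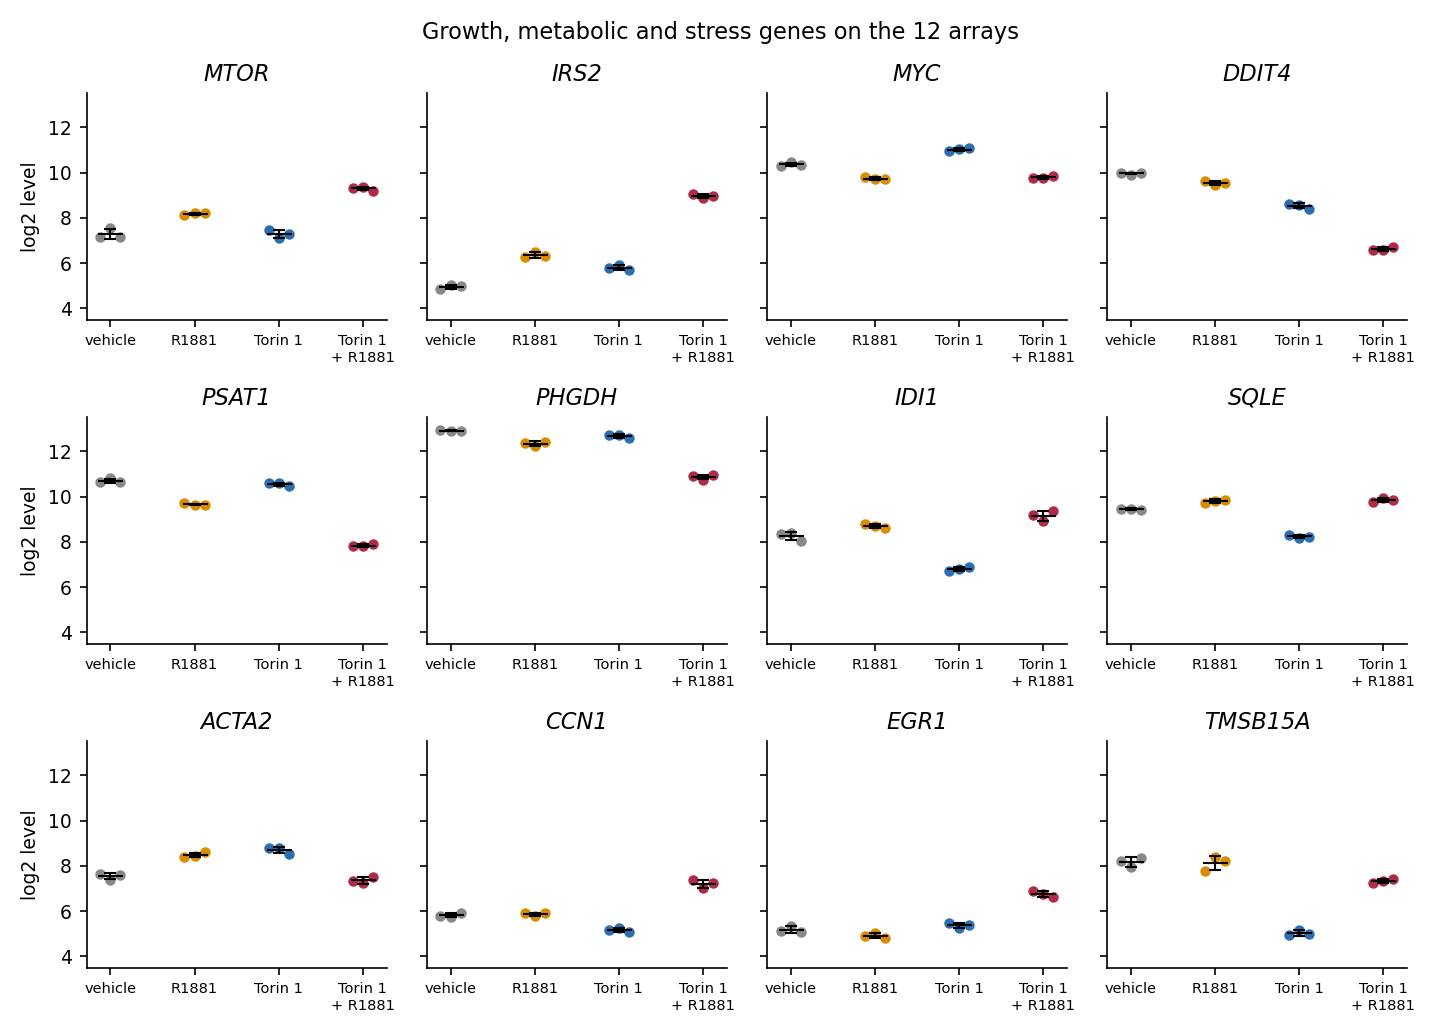
Log2 level (y axis) of 12 growth, metabolic and stress genes on the 12 arrays in the 4 groups (x axis); points are arrays, the dash is the mean and the bar the SD (n = 3). MTOR, IRS2, CCN1 and EGR1 are highest with both drugs and DDIT4, PSAT1 and PHGDH lowest, while IDI1 and SQLE rise with R1881 from a level that is lower under Torin 1.

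Genes of cholesterol synthesis rose together: 16 of 21 measured members rose and 2 fell, 85.7% called against 45.1% of all genes. Their median was 0.77 log2 under Torin 1 and 0.41 without it. For 9 of them the response was more positive under Torin 1 and for 1 more negative (7 and 0 with scaling on the median of all probes). IDI1, an isomerase of the mevalonate pathway, read 6.72, 6.82 and 6.90 log2 with Torin 1 and 9.19, 8.93 and 9.37 with R1881 added, a change of 2.35 against 0.45 without Torin 1 (adjusted p of the difference = 8.67e-06). SQLE, squalene epoxidase, went from 8.33, 8.19 and 8.24 to 9.78, 9.96 and 9.84 log2 against a change of 0.36 without Torin 1. The level of SQLE was 9.86 with both drugs and 9.81 with R1881 alone. That of IDI1 was 9.16 and 8.70, and for IDI1 all 3 arrays of both drugs lay above the 3 of R1881 alone. Levels with Torin 1 alone lay below vehicle for SQLE (8.25 against 9.45) and for IDI1 (6.81 against 8.25). INSIG1, which holds the sterol sensor in the ER, rose by 2.29 log2 against 0.54, with 0.76 from a dim second probe, and SCAP, the sterol sensor itself, by 1.77 against 1.05. The 2 that fell were INSIG2 and TM7SF2, named after their values were seen (-1.07 and -1.34 log2).

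Fatty acid synthesis was divided, with 9 of 20 genes higher and 7 lower, 80% called against 45.1% of all genes. FASN, fatty acid synthase, read 11.71, 11.58 and 11.54 and then 12.37, 12.33 and 12.59 log2, a change of 0.82 against 0.77 without Torin 1. ELOVL7, an elongase, was at least 4.19-fold higher and FADS1, a desaturase, rose by 1.41 log2, while SCD5 changed by -1.17 and ACACB by -1.35. ACACB was detected on 1 of 3 arrays with both drugs. SREBF1, the transcription factor of this programme, did not pass at 0.03 log2 (adjusted p = 0.832). In fatty acid oxidation 8 of 27 genes were higher and 7 lower, 55.6% called against 45.1% of all genes. AMACR, a racemase that is a prostate cancer marker, rose by 1.10 log2 by its brightest probe and gave -0.31 by its dimmest.

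Amino acid supply genes, many of them targets of the transcription factor ATF4, fell: 18 of 26 were lower and 4 higher. Of these genes 84.6% were called, against 45.1% of all genes. Their median was -0.61 log2 under Torin 1 and -0.17 without it. The response was more negative under Torin 1 for 13 of them and more positive for 2 (8 and 2 with scaling on the median of all probes). PSAT1, an enzyme of serine synthesis, read 10.59, 10.59 and 10.48 log2 with Torin 1 and 7.82, 7.80 and 7.90 with R1881 added, 6.54-fold lower, against -1.05 log2 without Torin 1 (adjusted p of the difference = 8.29e-07). PHGDH, the first enzyme of the same route, went from 12.72, 12.74 and 12.59 to 10.90, 10.75 and 10.95 log2, a change of -1.82 against -0.57. The means with Torin 1 alone were 10.55 for PSAT1 and 12.68 for PHGDH, against 10.70 and 12.91 with vehicle, and both were lowest with the 2 drugs together. VLDLR, a lipoprotein receptor in the same list, rose by 2.87 log2 against 1.22.

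**Figure D4:**
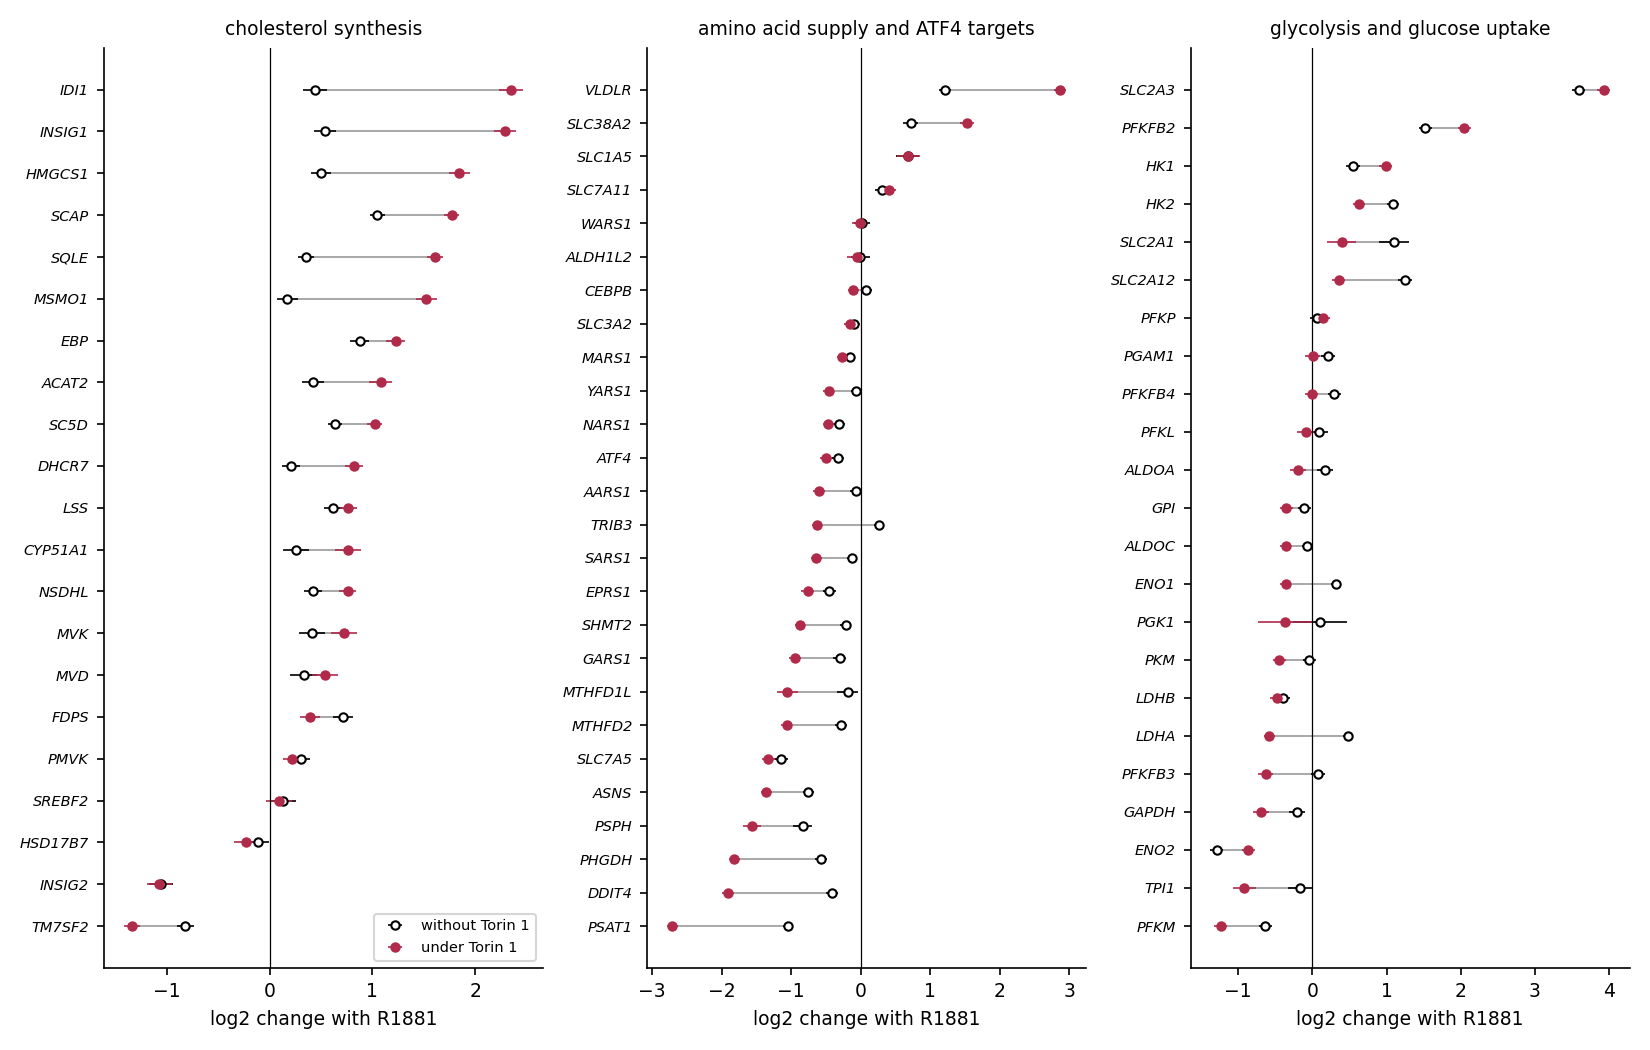
Log2 change with R1881 (x axis) under Torin 1 (filled) and without it (open) for every measured gene of 3 lists (y axis); bars are the SE of the model. Most cholesterol synthesis genes lie further right under Torin 1, and most amino acid supply and glycolysis genes further left.

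Glycolysis had 5 of 23 genes higher and 11 lower under Torin 1, against 9 and 3 without it, with medians of -0.35 and 0.10 log2. The share called under Torin 1 was 69.6%, against 45.1% of all genes. Without Torin 1, 15.8% of all genes rose and 21.5% fell. The interaction was negative for 9 of the glycolysis genes and positive for 3 (3 and 0 with scaling on the median of all probes). SLC2A3, a glucose transporter, was undetected on the Torin 1 arrays and at least 10.6-fold higher with R1881. PFKFB2, which makes an activator of phosphofructokinase, rose by 2.05 log2, from a level detected on 1 of 3 Torin 1 arrays. PFKM, muscle phosphofructokinase, fell from 9.13, 9.03 and 9.13 to 8.02, 7.74 and 7.82 log2, and HK1, a hexokinase, rose by 0.99. LDHA, lactate dehydrogenase, and ENO1, an enolase, were chosen after their values were seen because they changed direction: LDHA by -0.58 against 0.48 log2 and ENO1 by -0.36 against 0.32. Of 27 hypoxia-responsive genes 5 rose and 6 fell under Torin 1 (40.7% called against 45.1% of all genes), against 15 and 6 without it, and 10 had a more negative response under Torin 1 (5 with scaling on the median of all probes). The sign of that list's median, 0.04 log2, changed with the scaling. NDRG1, a stress-responsive differentiation gene, rose from 7.87, 7.94 and 8.02 to 11.69, 11.75 and 11.84 log2, and ANKRD37 from 6.50, 6.58 and 6.66 to 9.73, 9.73 and 9.68. Among tricarboxylic acid cycle and pyruvate entry genes 4 of 28 rose and 13 fell, 60.7% called against 45.1% of all genes. MPC2, a subunit of the mitochondrial pyruvate carrier, rose by 1.74 log2. Oxidative phosphorylation subunits had 6 of 61 higher and 17 lower (0 to 10 and 8 to 17 over the scalings, and 11 lower without the second Torin 1 array or the third with both drugs), 37.7% called against 45.1% of all genes, with a median whose sign changed with the scaling, and CYC1, cytochrome c1, fell by 0.89 log2.

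The secretory pathway rose. Of 36 ER folding and unfolded protein response genes 30 rose and 3 fell, 91.7% called against 45.1% of all genes. Their median was 0.79 log2 under Torin 1 and 0.49 without it. For 9 of the genes the response was more positive under Torin 1 (6 with scaling on the median of all probes). PDIA5, a disulfide isomerase, read 7.27, 7.30 and 7.49 and then 9.54, 9.50 and 9.58 log2, and SPCS3, a signal peptidase subunit, 6.26, 6.43 and 6.21 and then 8.49, 8.32 and 8.46. SDF2L1, an ER chaperone cofactor, rose by 1.31 against 0.66 log2 and CREB3L2, an ER-bound transcription factor, by 1.22 against 0.63. The 3 that fell, named after their values were seen, were the transcription factors DDIT3 (-1.01) and ATF4 (-0.50 log2) and the degradation adaptor SEL1L (undetected with both drugs, at least 1.18-fold lower). Of the 7 members with the ER stress element, HSP90B1, CALR, CANX, PDIA6 and CRELD2 rose, and HSPA5 and XBP1, at 0.10 and -0.10 log2, did not pass. Glycosylation and Golgi genes had 19 of 32 higher and 4 lower, 71.9% called against 45.1% of all genes. UAP1, which makes the sugar donor of N-glycans, rose by 1.81 log2. Of 20 polyamine genes 5 rose and 2 fell (1 to 4 lower over the scalings, 1 without the third Torin 1 array or the second with both drugs, and a median of either sign), 35% called against 45.1% of all genes: SMS, spermine synthase, SAT1, which acetylates polyamines, and ODC1, the rate-limiting decarboxylase, rose by 2.13, 2.12 and 2.10 log2, and GNMT, a methyl-group sink, was at least 12.8-fold higher.

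Ribosome biogenesis fell, with 24 of 33 genes lower and 1 higher, 75.8% called against 45.1% of all genes, and a median of -0.37 log2. Without Torin 1, 3 fell and 3 rose (all genes: 21.5% and 15.8%) and the median of the list was -0.05. The response was more negative under Torin 1 for 9 genes and more positive for 1 (2 and 0 with scaling on the median of all probes). BOP1, a processing factor of the large subunit, read 9.40, 9.36 and 9.50 log2 with Torin 1 and 8.82, 8.68 and 8.83 with R1881 added, and NOP56, a core protein of methylation-guide snoRNPs, 10.29, 10.48 and 10.36 and then 9.94, 9.84 and 9.69. DKC1, the pseudouridine synthase, fell by 0.64 log2 and by 0.47 without Torin 1. The changes were small beside those of the androgen targets, all under 1 log2. Ribosomal proteins had 1 of 44 higher and 7 lower, 18.2% called against 45.1% of all genes, so they changed less often than genes at large. These counts were 0 to 1 and 4 to 11 over the scalings, and 0 were higher without the third Torin 1 array or the first with both drugs. RPL29 fell by 0.43 log2 and RPL37 by 0.60; the latter call was lost without the second Torin 1 array or the third array with both drugs (adjusted p = 0.0626 and 0.0723).

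**Figure D5:**
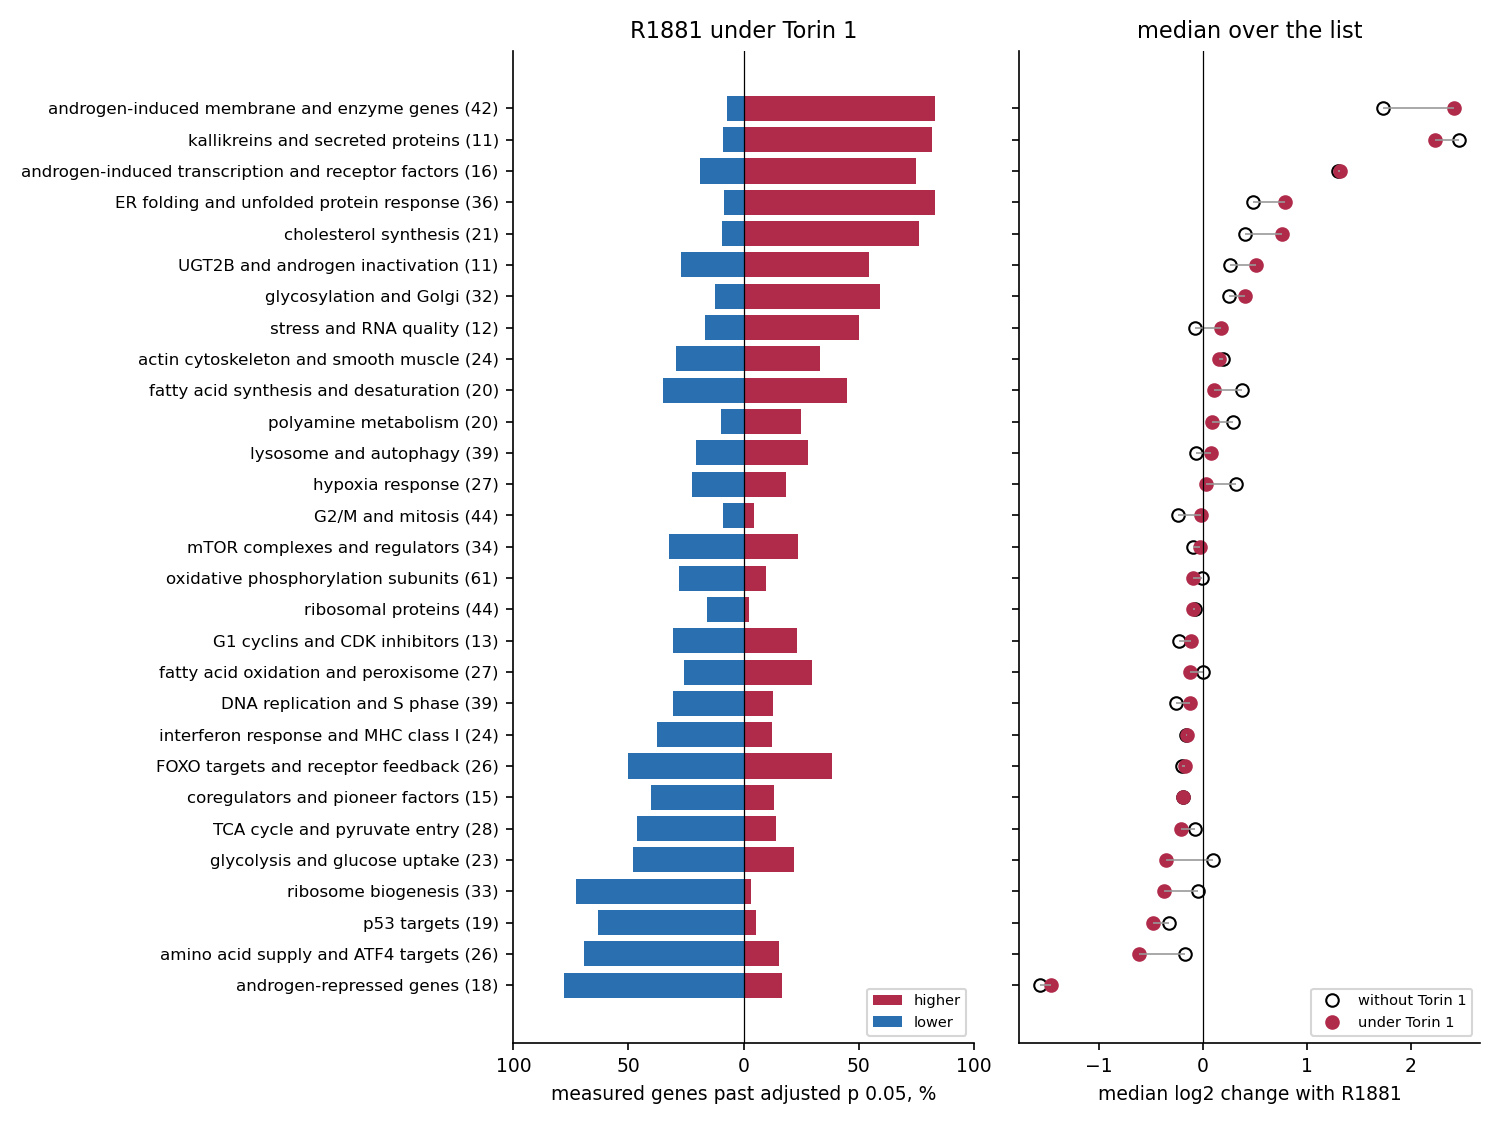
Left, share of the measured genes of each list (number in parentheses) that were higher (red, to the right) or lower (blue, to the left) with R1881 under Torin 1, in %; right, the median log2 change of the list under Torin 1 (filled) and without it (open). Androgen-induced, ER folding and cholesterol lists lie to the right, and androgen-repressed, amino acid supply, p53 target and ribosome biogenesis lists to the left.

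Of 39 lysosome and autophagy genes 11 rose and 8 fell (9 to 14 and 5 to 9 over the scalings, and 5 lower without the second Torin 1 array), 48.7% called against 45.1% of all genes, with a median whose sign changed with the scaling. WIPI1, an early autophagosome protein, was at least 6.45-fold higher, NPC1, the lysosomal cholesterol exporter, rose from 6.82, 7.03 and 7.16 to 8.88, 9.08 and 8.95 log2, and LAMP2, a lysosomal membrane protein, fell by 0.59. Of 19 p53 targets 12 fell and 1 rose, 68.4% called against 45.1% of all genes, with a median of -0.48 log2. TP53INP1 read 10.38, 10.29 and 10.21 and then 8.45, 8.32 and 8.11 log2, a change of -2.0 under Torin 1 and -2.11 without it. In the interferon and MHC class I list 3 of 24 rose and 9 fell, 50% called against 45.1% of all genes: B2M, the MHC light chain, rose from 9.16, 9.27 and 9.20 to 11.24, 11.09 and 11.36 log2, and MX1, an antiviral GTPase, fell by 1.77.

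In the list of 12 stress and RNA quality genes 6 rose and 2 fell, 66.7% called against 45.1% of all genes. EGR1, a growth factor-induced transcription factor, read 5.47, 5.26 and 5.39 log2 with Torin 1 and 6.91, 6.75 and 6.62 with R1881 added, and FOS, detected only with both drugs, was at least 2.03-fold higher. Without Torin 1 their changes were -0.26 and 0.01 log2, neither called. JUN changed by -0.81 and ATF3 by 0.97. Of 24 actin cytoskeleton genes 8 rose and 7 fell, 62.5% called against 45.1% of all genes. Stromal markers, 5 of 9 measured, had summed linear levels of 790.1 to 846.1 under Torin 1 and 435.4 to 468.8 with R1881 added, and ACTA2, VIM (-0.58) and TAGLN (-0.57 log2) fell while COL1A1 (-0.14) did not pass. All arrays hold RNA of the LNCaP line, so these sums are levels of marker genes and not counts of stromal cells. Bulk RNA does not show whether all cells or only a part of them changed. Of the 8 measured luminal markers 3 rose and 4 fell, 87.5% called against 45.1% of all genes. Their median changed sign with the scaling. The luminal keratins KRT8 and KRT18 rose, KRT8 from 8.28, 8.34 and 8.28 to 11.16, 10.93 and 11.02 log2 and KRT18 by 1.57, with 0.54 from a dimmer probe, and ENO2, the only measured neuroendocrine marker of 7, changed by -0.86 log2.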

How the data were processed

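Per the labels, total RNA of LNCaP cells was labelled by the Illumina protocol and hybridized to HumanHT-12 V4 arrays. The deposited table gives a signal intensity per probe, unnormalized by its values, and, per the file headers, a detection p-value for each array. The authors' processed log2 table, of unstated normalization, served as an alternative.

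Signal was background-corrected (normexp, background from detection p-values, offset 16), quantile normalized and log2-transformed with limma 3.58.1 in R 4.3.3. Of 47323 probes 20413 were kept, 15137 with 1 symbol from the platform annotation (updated through gene identifiers), 5274 with none and 2 with several. The brightest probe stood for each of 11517 genes; 2894 had several, and in 29 kept probes were called opposite ways. Another probe's value is given where it differs by over 1 log2 for a main result.

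One limma fit of 4 group means (8 residual degrees of freedom) gave all contrasts; p-values were adjusted by Benjamini-Hochberg over all genes, called under 0.05. An exact permutation of 3 against 3 arrays cannot give a two-sided p under 0.1 and was not run. Where a group had no detection, the fold is a bound ("at least"), set against the lowest level of any detected probe on each array. Code was tested on simulated data.

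Named genes were the 12 largest rises and falls, the 8 largest interactions each way, up to 4 members per list with the smallest adjusted p, a set of 24 always given, up to 6 of opposite direction and up to 6 called only under Torin 1 with an interaction. Members, lists and rules were chosen with earlier results of these data known. Alternatives were 3 scalings, no background correction, offset 50, no probe filter, detection p under 0.01, the mean of probes, the authors' table, only 6 arrays, a replicate block and leaving out each array. Some genes of the set always given are not reported here, and the MKI67 probe was detected on 0 of 12 arrays.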

Additional observations from a re-analysis of the deposited data

Results flagged for a closer look

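The R1881 response differed between the settings with and without Torin 1, by the interaction test, for 1721 genes. The genes given here are those that the naming rules for this difference picked; other genes named in the report also passed the test and have their values there. The value is the log2 change with R1881 under Torin 1 less that without it, with 3 arrays in each of the 4 groups.

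The response was more positive under Torin 1 for NCAPD3 (2.60), ANGPT2 (2.53), ATAD2 (2.52), NBL1 (2.44), TMSB15A (2.36), CLDN8 (2.29), GADD45G (2.27), CCN1 (1.99), SLC9B2 (1.91), TLCD4 (1.73), APP (1.69) and PTPN13 (1.27). It was more negative for ACTA2 (-2.29), CRCP (-2.12), TUBA3E (-1.93), NNT (-1.82), TUBA3C (-1.79), PNLIP (-1.73), HBQ1 (-1.69), PSAT1 (-1.66), PLA2G4F (-1.41), SMCO4 (-1.24) and ITPRIP (-1.24). ANGPT2, NBL1, TUBA3E, TUBA3C, NNT, PNLIP and SLC9B2 were undetected with vehicle and with Torin 1, so these fitted differences start from the background. Groups of 3 arrays are too small for a test of single outlying arrays.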

How the results depend on the processing

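The total called under Torin 1 lay between 4582 and 4780 when 1 array was left out (higher 1944 to 2030, lower 2638 to 2750), that without Torin 1 between 3659 and 3927 (1553 to 1674 and 2085 to 2270), and the interaction between 1347 and 1548 (691 to 825 more positive, 638 to 728 more negative). The counts moved by over 1.5 times only with median scaling over all probes. With median scaling over all 47323 probes, an alternative added after seeing the data, higher calls under Torin 1 were 1337 against 2157, those without Torin 1 were 848 against 1818, lower calls without Torin 1 were 3720 against 2471, and the interaction was called for 817 genes, 546 more positive and 271 more negative. The median of all genes moved to -0.16 log2 under that scaling. The planned median scaling did not say over which probes; using those detected on all 12 arrays was settled after the counts over all probes had been seen, and gave 2460 higher, 2326 lower and 1524 interaction calls. The cause of these differences was not tested. With the replicate number as a block, 5077 genes were called under Torin 1 (2106 higher, 2971 lower) and 1547 for the interaction. Same-numbered arrays, after group means were removed, correlated with a mean r of -0.0032, and in 4 of 12 the best match had the same number; the block is not read as a pairing. The sign of the median changed with the scaling for the lists of mitosis, G1, hypoxia, lysosome, mTOR, oxidative phosphorylation, polyamine and luminal genes. CD68, not called at -0.18 log2, was called at 0.36 without background correction and at 0.345 with the mean of its probes, whose other member gave 0.87. The interaction calls of FKBP5, KLK2, CCND1, TXNIP and IGF1R were lost under several alternatives. Precision is limited by 3 arrays per group, and a change that starts at the background is given as a bound where a whole group was undetected.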
